A study of Mus musculus with 54 samples.

Results

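The 9 genes described here encode cytokines and were chosen by name: Il17a, Il17f, Il21, Il22, Il10, Il9, Il2, Csf2 and Tgfb3. All 9 were found among the 45802 genes of the deposited table. Their RNA was measured in mouse T helper 17 (Th17) cells made in culture from C57BL/6 CD4+ CD25- T cells, which were isolated from lymph nodes and spleen. The cells of every group were kept for 4 days on plate-bound antibody to CD3 with antibody to CD28, antibodies that block IFN-γ and IL-4, and the cytokines TGF-β1, IL-6 and IL-1β. Groups received 60 mM Arg C (dose as labelled, an unusually high unit that could not be checked), 100 µM linezolid, or the vehicle DMSO for 96 h. On day 4, the dye CellTrace Violet, which is diluted at each division, was used to sort live CD4+ cells into cycle 2 (1 division), cycle 3 (2 divisions) and cycle 4 (3 or more divisions). The labels describe neither the mice of each experiment nor a restimulation of the cells before RNA was taken, and give the purity of the starting cells as about 90%.

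Th17 cells are helper T cells named for the cytokines IL-17A and IL-17F, which act on epithelial and stromal cells and draw in neutrophils. The transcription factors STAT3, BATF and IRF4 are among those that drive both genes. IL-21 acts back on T cells and sustains the programme, IL-22 acts on epithelium, IL-10 restrains inflammation, and TGF-β3 and GM-CSF (Csf2) are associated with Th17 cells that cause tissue inflammation. IL-9 is best known from Th9 cells but is also made by Th17 cells, and IL-2 is the early T cell growth factor. Linezolid is an oxazolidinone antibiotic that blocks bacterial ribosomes and can block those of mitochondria.

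The 18 samples came from 2 experiments, with 3 drugs and 3 cycles in each. Each was sequenced as 3 libraries that differed little more than counting error and were averaged to 1 sample of 24.3 to 36.9 M reads. A drug therefore has n = 6 samples but only 2 independent cultures, since its 3 cycles are fractions of 1 culture, and p-values over all cycles can be too small. Levels are in RPKM, which scales reads by gene length and library size. Differences are on the log2(RPKM + 1) scale, which understates changes of weak genes, and a gene is called changed at a Benjamini-Hochberg adjusted p under 0.05 from limma over 11004 tested genes. The drugs moved most of the transcriptome: on this scale the 11004 genes had a median difference from DMSO of -0.47 for Arg C and -0.21 for linezolid. Transcripts of cytosolic ribosomal proteins took 15.4 to 16.8% of reads in DMSO, 24.9 to 28.4% in Arg C and 18.7 to 24.5% in linezolid. Their part in the differences below was not tested.

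Promoters are shown for 4 of the genes: Il17a and Il17f, neighbours on chromosome 1 with nearly parallel levels, Il21, which fell with them, and Il9, which moved the other way. Each line gives the 250 bases before the annotated start, from RefSeq (GRCm38.p6), in the direction of the gene. Capitals mark matches on either strand to TGANTCA (AP-1), GGAAAA (core of the NFAT motif) or TGTGGT (core of the RUNX motif).
Il17a, chr1:20730655-20730904, plus strand: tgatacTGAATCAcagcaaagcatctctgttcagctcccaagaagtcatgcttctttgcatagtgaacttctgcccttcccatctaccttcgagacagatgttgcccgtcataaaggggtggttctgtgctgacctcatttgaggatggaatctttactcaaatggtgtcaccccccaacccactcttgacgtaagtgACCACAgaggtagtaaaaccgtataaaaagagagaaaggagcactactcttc
Il17f, chr1:20784271-20784520, minus strand: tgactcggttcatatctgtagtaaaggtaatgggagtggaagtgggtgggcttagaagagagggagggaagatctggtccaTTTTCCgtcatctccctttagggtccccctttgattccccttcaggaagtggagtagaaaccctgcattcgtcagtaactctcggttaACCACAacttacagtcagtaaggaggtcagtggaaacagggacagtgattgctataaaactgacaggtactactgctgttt
Il21, chr3:37232637-37232886, minus strand: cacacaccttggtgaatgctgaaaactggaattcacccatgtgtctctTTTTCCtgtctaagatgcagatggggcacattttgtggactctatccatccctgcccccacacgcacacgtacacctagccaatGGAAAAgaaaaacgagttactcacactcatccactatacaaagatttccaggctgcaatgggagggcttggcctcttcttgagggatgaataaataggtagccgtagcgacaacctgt
Il9, chr13:56482258-56482507, minus strand: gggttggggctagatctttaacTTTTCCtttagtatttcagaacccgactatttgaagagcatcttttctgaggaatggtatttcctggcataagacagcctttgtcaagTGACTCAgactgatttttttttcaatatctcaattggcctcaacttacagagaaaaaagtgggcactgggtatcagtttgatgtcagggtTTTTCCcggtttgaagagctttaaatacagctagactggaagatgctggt

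RefSeq windows were matched for 7 of the 9 genes, all but Il10 and Tgfb3. The RUNX core occurred in 2 of the 7 windows, those of Il17a (52 to 47 bases before the start) and Il17f (81 to 76 bases before it), on the opposite strand in both. It occurs in 14.0% of all 32851 windows of this length. The AP-1 motif was found in the windows of Il17a and Il9, against 6.75% of all windows, and the NFAT core in those of Il17f, Il21, Il9 and Il2, against 20.4%. A STAT motif (TTCNNNGAA, in 7.02% of all windows) was found in 0 of the 7. The motifs do not overlap each other in these windows. A match is a stretch of letters and does not show binding.

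In DMSO the 9 genes covered a wide span of levels. Their summed level had a median of 245.5 RPKM (range 152 to 430, n = 6), against 26.0 (13.0 to 50.0) in Arg C and 30.4 (16.7 to 50.3) in linezolid, and the ranges of DMSO and either drug did not overlap. Il17f was the most abundant in all 18 samples. It made up 56.1 to 70.5% of the sum in DMSO and 52.0 to 66.5% with either drug. Il17a followed at 9.78 to 15.01% in DMSO, and Il21 at 8.03 to 16.6%. Median DMSO levels were 154 RPKM for Il17f, 32.7 for Il17a, 29.4 for Il21, 19.5 for Tgfb3, 7.49 for Il10, 1.17 for Il9, 0.479 for Csf2, 0.211 for Il2 and 0.170 for Il22. The DMSO ranges of Il17a, Il21 and Tgfb3 overlapped, as did those of Il9 and Csf2, and of Csf2, Il2 and Il22.

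**Figure D1:**
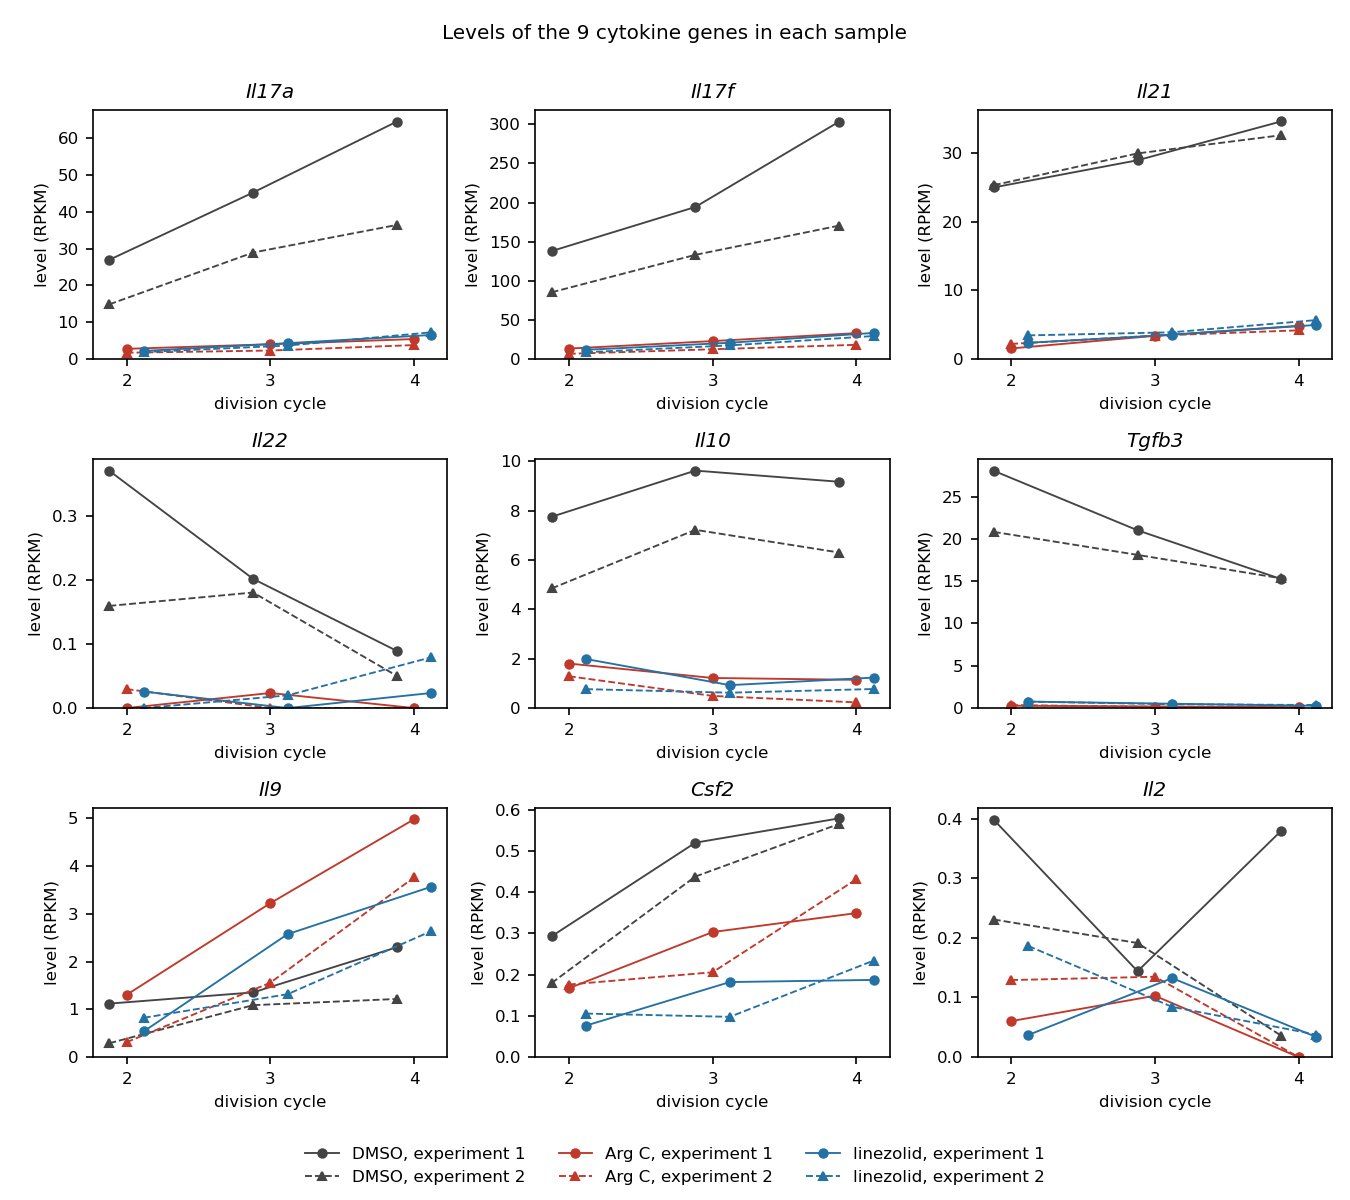
Level in RPKM (y axis, its own scale for each gene, from 0) of each of the 9 cytokine genes by division cycle (x axis), 1 point per sample, coloured by drug, with lines joining the 3 cycles of an experiment (circles and full lines, experiment 1; triangles and dashed lines, experiment 2). For Il17a, Il17f, Il21, Il10 and Tgfb3 all 12 drug samples lie below all 6 DMSO samples, while Il9 rises with division in every group. The share of all genes with such a separation is not given.

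Il17a, which encodes the signature cytokine IL-17A, fell with both drugs. In DMSO it stood at 27.0 and 14.9 RPKM in cycle 2 (experiments 1 and 2), 45.2 and 28.9 in cycle 3, and 64.5 and 36.4 in cycle 4. With Arg C the same values were 2.78 and 1.72, 4.03 and 2.32, and 5.45 and 3.81. With linezolid they were 2.21 and 1.91, 4.32 and 3.68, and 6.55 and 7.28. Experiment 1 was the higher one in DMSO and in Arg C at every cycle, and the highest drug sample (7.28) stayed below the lowest DMSO sample (14.9). Within matched cycle and experiment, DMSO was 8.64 to 12.5 times Arg C and 5.01 to 12.2 times linezolid. Over all cycles the difference was -3.02 ± 0.11 (SE) for Arg C (adjusted p = 1.4e-10, limma) and -2.78 ± 0.11 for linezolid (adjusted p = 5.1e-10).

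Il17f, whose product pairs with IL-17A, ran almost in parallel. DMSO samples held 138 and 85.3 RPKM in cycle 2, 194 and 133 in cycle 3, and 304 and 171 in cycle 4. Arg C samples held 13.4 and 6.74, 23.0 and 12.6, and 33.1 and 18.2. Linezolid samples held 11.9 and 8.73, 20.9 and 17.5, and 33.5 and 29.5. The groups did not overlap, with DMSO 8.46 to 12.7 times Arg C and 5.79 to 11.6 times linezolid. The differences were -3.23 ± 0.10 and -3.04 ± 0.10 (adjusted p = 1.7e-11 and 5.0e-11, limma). The ratio of Il17f to Il17a was 4.30 to 5.74 in DMSO, 3.92 to 6.08 in Arg C and 4.05 to 5.36 in linezolid, so the 3 ranges overlapped while both genes fell.

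Il21, encoding a cytokine that Th17 cells make and answer to, was the steadiest between experiments in DMSO, at 24.96 and 25.3 RPKM in cycle 2, 28.9 and 29.9 in cycle 3, and 34.6 and 32.5 in cycle 4. Arg C samples held 1.55 and 2.20, 3.38 and 3.41, and 4.83 and 4.18. Linezolid samples held 2.37 and 3.45, 3.54 and 3.90, and 4.96 and 5.67. All drug samples lay below all DMSO samples. The differences were -2.88 ± 0.07 for Arg C and -2.63 ± 0.07 for linezolid (adjusted p = 5.0e-12 and 1.8e-11, limma).

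Il10, encoding an anti-inflammatory cytokine, fell by a smaller amount on the same scale. In DMSO it held 7.75 and 4.85 RPKM in cycle 2, 9.63 and 7.23 in cycle 3, and 9.18 and 6.31 in cycle 4. Arg C samples held 1.81 and 1.29, 1.22 and 0.493, and 1.15 and 0.231. Linezolid samples held 1.99 and 0.768, 0.930 and 0.624, and 1.24 and 0.773. The spread over matched pairs was wide for Arg C, from 3.76 to 27.4 times, the last in cycle 4 of experiment 2. The differences over all cycles were -2.09 ± 0.08 and -2.05 ± 0.08 (adjusted p = 1.7e-10 and 3.5e-10, limma).

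Tgfb3, encoding TGF-β3, had the largest fold reduction of the 7 tested genes. DMSO samples held 28.0 and 20.8 RPKM in cycle 2, 21.0 and 18.1 in cycle 3, and 15.2 and 15.3 in cycle 4. With Arg C it was 0.284 and 0.351, 0.183 and 0.151, and 0.106 and 0.0794 RPKM, from 8 to 33 reads a sample. With linezolid it was 0.767 and 0.765, 0.512 and 0.457, and 0.272 and 0.362, from 28 to 88 reads. DMSO was 59.2 to 193 times Arg C and 27.2 to 56.1 times linezolid. On the compressed scale the differences were -4.10 ± 0.07 and -3.75 ± 0.07 (adjusted p = 2.1e-13 and 6.1e-13, limma). Among the 11004 tested genes it ranked 13 from the most lowered with Arg C and 12 with linezolid. For comparison, Il17f ranked 38 and 28, Il17a 45 and 42, Il21 63 and 51, and Il10 223 and 111.

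Il9, encoding a growth factor for mast cells and T cells, did not follow the others. In DMSO it held 1.12 and 0.290 RPKM in cycle 2, 1.35 and 1.09 in cycle 3, and 2.30 and 1.22 in cycle 4, from 5 to 41 reads. Arg C samples held 1.30 and 0.311, 3.22 and 1.56, and 4.98 and 3.76, and exceeded the matched DMSO sample in 6 of 6 pairs. Linezolid samples held 0.539 and 0.823, 2.57 and 1.32, and 3.57 and 2.64, and exceeded it in 5 of 6. The ranges of DMSO and each drug overlapped. Il9 rose by 0.54 ± 0.12 with Arg C (adjusted p = 0.00089, limma) and by 0.33 ± 0.12 with linezolid (adjusted p = 0.024). The call for linezolid was lost in 8 of the 13 alternatives run, with adjusted p from 0.056 to 0.36, among them leaving out replicate 1 (0.13) and averaging the 3 cycles of a culture (0.064). The summed reads were 124 in DMSO, 249 in Arg C and 189 in linezolid. The median share of Il9 in the summed cytokine level went from 0.477% in DMSO to 8.28% in Arg C and 5.29% in linezolid. Most of this change lies in the sum, whose median fell from 245.5 RPKM to 26.0 and 30.4. The median of Il9 itself was 1.17 RPKM in DMSO, 2.39 in Arg C and 1.94 in linezolid.

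Csf2, encoding GM-CSF, was weak in every sample. Its reads per sample ran from 8 to 27 in DMSO (0.179 to 0.579 RPKM), from 6 to 18 in Arg C (0.167 to 0.431) and from 3 to 9 in linezolid (0.0764 to 0.234). Both drugs were lower than DMSO in 6 of 6 matched pairs, by 1.02 to 2.13 times for Arg C and 1.70 to 4.49 times for linezolid, although the ranges overlapped. Csf2 fell by 0.31 ± 0.04 with linezolid (adjusted p = 2.8e-05, limma) and by 0.16 ± 0.04 with Arg C (adjusted p = 0.0031). The Arg C call was lost with samples scaled to a common median ratio (difference -0.0004), in experiment 2 alone (adjusted p = 0.12) and with the cycles of a culture averaged (adjusted p = 0.081).

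Il22 and Il2 did not reach 0.5 RPKM in 2 samples and were not among the tested genes, so their reads were summed. Il22 had 45 reads over the 6 DMSO samples (2 to 16 each), 2 over the 6 Arg C samples and 6 over the 6 linezolid samples. Its DMSO reads were 16 and 7 in cycle 2, 8 and 8 in cycle 3, and 4 and 2 in cycle 4. Over all cycles DMSO was 21.8 times Arg C (95% exact interval 5.68 to 185) and 7.54 times linezolid (3.21 to 21.6), intervals that cover counting error only. Il2 had 42 reads in DMSO (1 to 12 each), 12 in Arg C and 16 in linezolid, so DMSO was 3.38 times Arg C (1.75 to 7.06) and 2.64 times linezolid (1.45 to 5.03). Both genes were lower in 6 of 6 matched pairs with Arg C and in 5 of 6 with linezolid. A two-sided sign-flip permutation test over the 6 pairs gave p = 0.03125 for Arg C, the smallest it can give, and p = 0.0625 for linezolid, for each gene. The 6 pairs are cycle fractions of 2 cultures per drug and are not independent, so these p-values can be too small. Adjusted over these 4 tests every value was 0.0625, so none passed. With no filter on low values, limma called both genes lower with each drug among 19284 genes (adjusted p = 0.00024 and 0.00074 for Il22, 0.026 and 0.048 for Il2). Of these 19284 genes, 11616 were called in either direction with Arg C and 9890 with linezolid, so the calls do not set the 2 genes apart. In samples listed at 0 for Il22, a true level of up to 3 reads, as in cycle 2 of Arg C in experiment 1 (0.0638 RPKM), could have been missed.

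**Figure D2:**
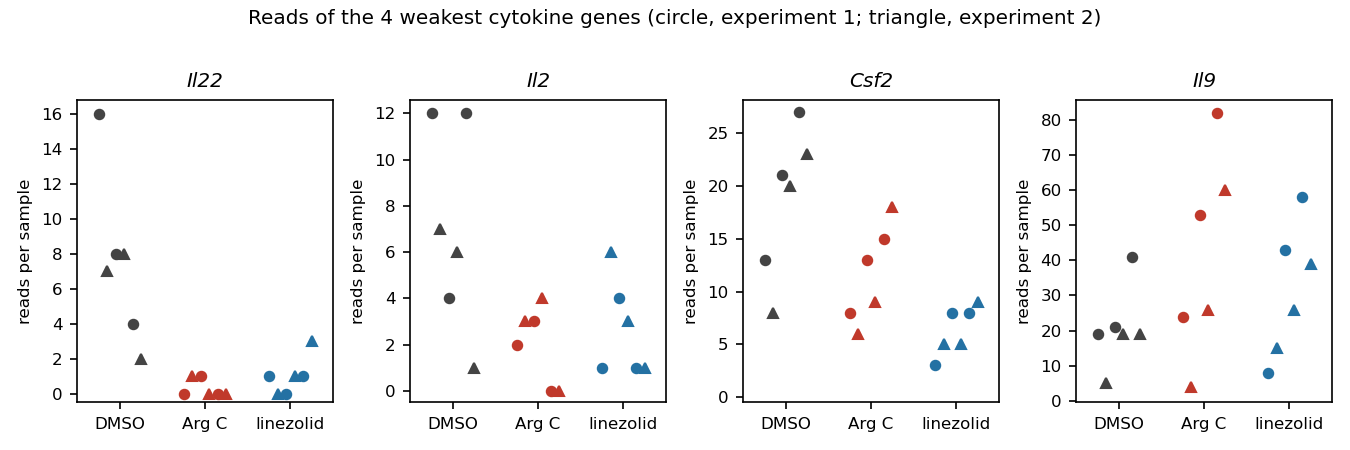
Reads per sample (y axis, 3 libraries summed, not scaled by the sample total of 24.3 to 36.9 M reads) of the 4 weakest of the 9 genes by drug (x axis), 1 point per sample, ordered from cycle 2 to cycle 4 within a drug. Il22 and Il2 do not exceed 16 reads in any sample, and Il9 reaches 82 in Arg C.

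Of the 7 tested genes, 6 were called lower and 1, Il9, higher with each drug over all cycles. Among all tested genes 70.0% were called lower and 16.5% higher with Arg C, and 54.5% and 21.0% with linezolid. Being called lower therefore does not set these genes apart, and the sizes above say more, although they depend on the scaling. With median-ratio scaling the shares of all genes called lower and higher were 41.9% and 41.4% with Arg C, and 37.1% and 36.9% with linezolid. That scaling divides DMSO samples by 1.23 to 1.28, Arg C samples by 0.734 to 0.862 and linezolid samples by 0.918 to 1.13. The sizes above were not scaled in this way, and every ratio of DMSO to a drug would be smaller with it. The calls of 6 of the 7 genes with Arg C and of all 7 with linezolid were the same under it. The share of all genes whose drug and DMSO samples do not overlap is not given here, so any lack of overlap is a description. The calls held for 6 of the 7 genes with each drug when the cycles of a culture were averaged, all but Csf2 with Arg C and all but Il9 with linezolid. In experiment 1 the Arg C differences ran from -4.20 (Tgfb3) to 0.61 (Il9) and in experiment 2 from -3.99 to 0.47, with the same sign for all 7 genes. For linezolid they ran from -3.86 to 0.20 and from -3.64 to 0.45, again with the same signs.

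Within single cycles the same 5 genes, Il17a, Il17f, Il21, Il10 and Tgfb3, were called lower in each cycle with each drug. Csf2 was called lower in cycles 3 and 4 with each drug, in cycle 3 with Arg C not with median-ratio scaling (-0.064, adjusted p = 0.44, limma). The background of genes called lower was 62.7, 63.0 and 63.5% in cycles 2, 3 and 4 with Arg C, and 37.1, 46.0 and 44.3% with linezolid. Il9 differed by 0.07 ± 0.21 in cycle 2 with Arg C (adjusted p = 0.76, limma), and was called higher in cycle 3 (0.57 ± 0.21, adjusted p = 0.024) and in cycle 4 (0.98 ± 0.21, adjusted p = 0.00091). With linezolid its differences were 0.02, 0.38 and 0.59 ± 0.21, and only that of cycle 4 was called (adjusted p = 0.027). The background of genes called higher was 12.9, 14.1 and 11.7% with Arg C and 15.7, 15.4 and 14.0% with linezolid in the 3 cycles. The cycle 3 call with Arg C and the cycle 4 call with linezolid were lost in 5 alternatives each, among them leaving out replicate 1 (adjusted p = 0.052 and 0.15). Csf2 in cycle 4 with Arg C was called at adjusted p = 0.045, a call lost without replicate 1 or 2 (adjusted p = 0.20 and 0.081), and its sign turned (0.031) with median-ratio scaling.

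**Figure D3:**
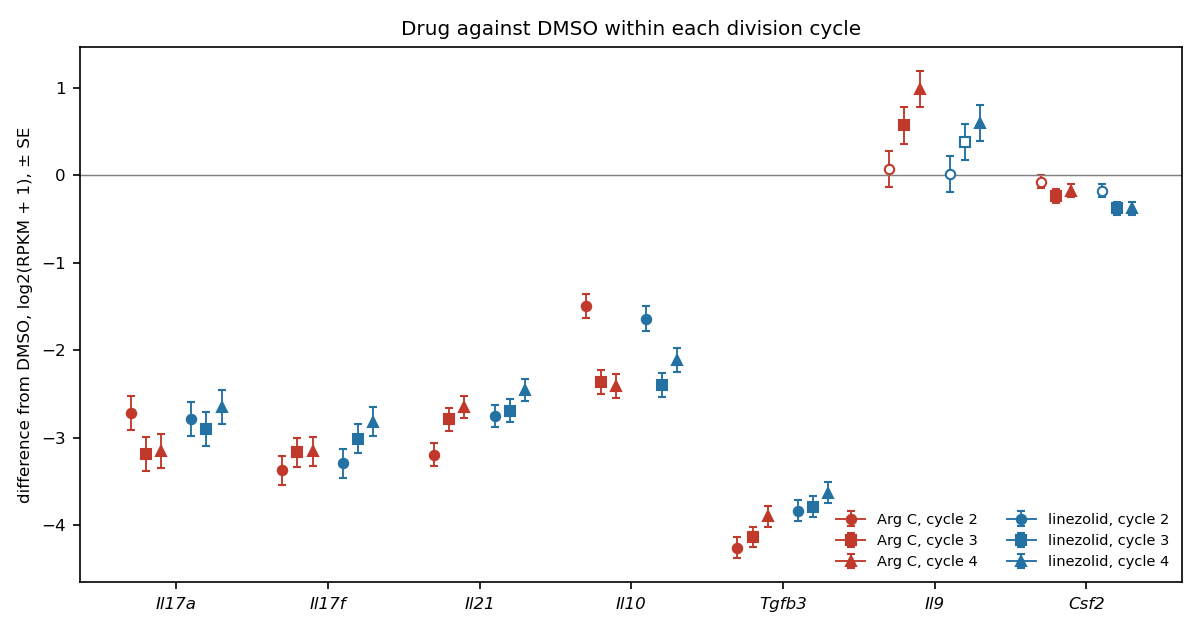
Difference from DMSO in log2(RPKM + 1), with its standard error from limma (y axis), for the 7 tested cytokine genes (x axis) in cycle 2 (circles), cycle 3 (squares) and cycle 4 (triangles), Arg C in red and linezolid in blue, n = 2 experiments per drug and cycle. Filled symbols passed the test. Tgfb3 lies lowest, between -4.26 and -3.63, and Il9 is the one gene above 0.

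Levels also moved with division, and most of these courses ran the same way with and without drug. The cycles of a culture are paired in the fit only through the experiment block, so the p-values for division courses ignore part of that pairing. From cycle 2 to cycle 4, Il17a and Il17f rose in every drug and experiment. The rise of Il17a was 2.39- and 2.45-fold in DMSO (experiments 1 and 2), 1.96- and 2.21-fold in Arg C, and 2.96- and 3.81-fold in linezolid. That of Il17f was 2.20- and 2.00-fold, 2.47- and 2.70-fold, and 2.82- and 3.38-fold. In the fit, Il17a rose by 1.23 ± 0.20 in DMSO, 0.79 ± 0.20 in Arg C and 1.37 ± 0.20 in linezolid (adjusted p = 0.0032, 0.0083 and 0.00035, limma). Il17f rose by 1.06, 1.28 and 1.53 ± 0.16 (adjusted p = 0.0028, 0.00016 and 5.3e-05, limma). Without the experiment block the DMSO calls of both genes were lost (adjusted p = 0.071 and 0.21), as was that of Il17a in Arg C (adjusted p = 0.11).

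Il21 rose by 0.94 ± 0.13 in Arg C and by 0.70 ± 0.13 in linezolid (adjusted p = 0.00020 and 0.0016, limma). In DMSO its change of 0.40 ± 0.13 was not called (adjusted p = 0.076). Il9 rose by 1.62 ± 0.21 in Arg C and 1.28 ± 0.21 in linezolid (adjusted p = 0.00015 and 0.00072, limma), and its DMSO change of 0.71 ± 0.21 was not called (adjusted p = 0.056). Csf2 rose in DMSO and Arg C by 0.35 and 0.25 ± 0.07 (adjusted p = 0.015 and 0.024, limma), both lost without replicate 1 (adjusted p = 0.10 and 0.064) and the second also without replicate 2 (adjusted p = 0.052). Tgfb3 went the other way. It decreased by 0.63 ± 0.12 in DMSO and by 0.42 ± 0.12 in linezolid (adjusted p = 0.0086 and 0.017, limma), the first lost with a pseudocount of 0.1 (adjusted p = 0.059). In Arg C it was listed lower with every cycle in both experiments, by 2.68 and 4.43 times from cycle 2 to cycle 4. There the difference of -0.27 ± 0.12 was not called (adjusted p = 0.10), and it was called with a pseudocount of 0.1 (adjusted p = 0.00075) and in limma-voom on reads (adjusted p = 0.0092).

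Counted together, 3 of the 7 genes were called higher and 1 lower from cycle 2 to cycle 4 in DMSO, against 4.45% and 3.22% of all tested genes. In Arg C 5 were called higher and 1 lower, against 18.3% and 13.7%. In linezolid 4 were called higher and 1 lower, against 15.0% and 17.9%. Even cycle 4 of the drug groups stayed below cycle 2 of DMSO for Il17a, Il17f and Il21: for Il21 the highest drug sample held 5.67 RPKM and the lowest DMSO sample 24.96.

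Il10 was the 1 gene of 7 whose division course was called different from that in DMSO, and which genes were called varied with the processing. In DMSO it stood 1.18 and 1.30 times higher in cycle 4 than in cycle 2, whereas in Arg C cycle 2 held 1.58 and 5.60 times the level of cycle 4. The change was 0.27 ± 0.14 in DMSO (adjusted p = 0.27, limma) and -0.64 ± 0.14 in Arg C (adjusted p = 0.0039, and 0.19 without the experiment block), and the difference between them was -0.91 ± 0.20 (adjusted p = 0.016). This difference was not called in limma-voom on reads (adjusted p = 0.053) or without the experiment block (adjusted p = 0.39). For Il21 the difference in Arg C was 0.54 ± 0.18 (adjusted p = 0.091, limma), and it was called with median-ratio scaling (0.049), a pseudocount of 0.1 (0.045) and limma-voom (0.034). For Il9 it was 0.91 ± 0.29 (adjusted p = 0.082, limma), and it was called with median-ratio scaling (0.040). With linezolid the Il10 difference was -0.48 ± 0.20 (adjusted p = 0.17). The background of genes called lower and higher was 3.66% and 4.25% for Arg C, and 3.34% and 2.05% for linezolid, where 0 of the 7 genes were called.

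The size of the drug effect differed between experiments for both Il17 genes with linezolid. The linezolid difference of Il17a was -3.12 in experiment 1 and -2.43 in experiment 2, 0.68 ± 0.10 apart (adjusted p = 0.00063, limma). For Il17f the values were -3.25 and -2.83, 0.41 ± 0.08 apart (adjusted p = 0.0025). DMSO samples of experiment 2 held less of both genes than those of experiment 1 at each cycle, while linezolid samples of cycle 4 held 6.55 and 7.28 RPKM of Il17a and 33.5 and 29.5 of Il17f. With Arg C 0 of the 7 genes differed between experiments, the largest gap being that of Il17a at 0.25 ± 0.10 (adjusted p = 0.069). Among all tested genes 44.3% were called different between experiments for linezolid and 35.7% for Arg C. Such a call is therefore common and does not set the Il17 genes apart. Each experiment holds 1 culture per drug, so the cycles of a culture serve as the replicates of this test. Its p-values therefore do not measure the spread between cultures. Experiment and sequencing lane cannot be told apart.

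Arg C and linezolid were given at different doses, so their difference compares 2 treatments and not 2 potencies. Arg C was lower than linezolid for Tgfb3 by -0.35 ± 0.07 (adjusted p = 0.00077, limma) and for Il21 by -0.25 ± 0.07 (adjusted p = 0.010), and higher for Csf2 by 0.15 ± 0.04 (adjusted p = 0.0092). Across all tested genes 59.8% were called lower and 7.64% higher. The sign for Il21 turned with median-ratio scaling (0.038, adjusted p = 0.67), and with the cycles of a culture averaged none of the 3 was called (adjusted p = 0.065, 0.13 and 0.16). For Il17a, Il17f, Il10 and Il9 the differences were -0.24 ± 0.11, -0.19 ± 0.10, -0.04 ± 0.08 and 0.21 ± 0.12 (adjusted p = 0.075, 0.090, 0.70 and 0.13, limma), which does not show that the treatments act alike. The Il17a difference was called without replicate 1 or 3 (adjusted p = 0.026 and 0.043, limma). In experiment 2 alone both Il17 genes were called lower with Arg C (adjusted p = 0.016 and 0.0036, limma), with the cycles of 1 culture per drug as the replicates.

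**Figure D4:**
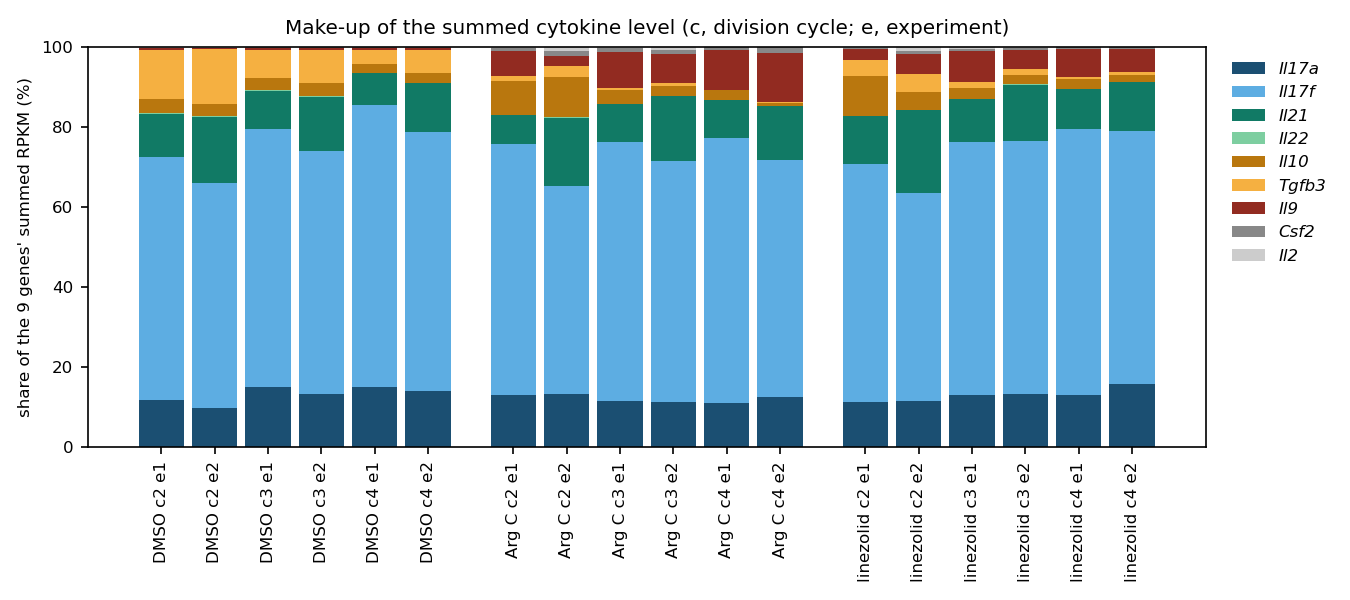
Share of the summed RPKM of the 9 cytokine genes taken by each gene (y axis, percent) in each of the 18 samples (x axis, by drug, cycle c and experiment e). Il17f fills more than 52.0% of every bar, Tgfb3 shrinks from 3.54 to 13.7% in DMSO to at most 4.57% with a drug, and Il9 widens from at most 0.534% to 2.40% or more. The sum behind each bar is smaller with a drug, so a wider share is not a rise of the same size.

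The levels of 5 genes moved closely together over the 18 samples. On the log2(RPKM + 1) scale Pearson's r was 0.99 between Il17a and Il17f, 0.96 between Il21 and each of them, and 0.89 to 0.95 among the remaining pairs with Il10 and Tgfb3. All these pairs share the same 18 samples and the step between DMSO and the drug groups, so the values are a description. Il9 had r between -0.40 (Tgfb3) and 0.32 (Csf2). Candidates were the 5992 genes that averaged 5 RPKM or more, without the gene itself. Those most like Il17a were Il17f (0.993), Gja1 (0.979) and Ahr (0.977), the last a receptor for small aromatic ligands that acts in Th17 cells. Those most like Il17f were Il17a, Smim3 (0.982) and Adprm (0.977). Il21 lay closest to Park7 (0.995), Lxn (0.994) and Slc37a4 (0.993), and Il10 to Sdc3 (0.982), Emb (0.978) and Cnn3 (0.974). Tgfb3 lay closest to Selenbp1 (0.996), H2-Q10 (0.995) and Basp1 (0.995). Il9 was most like Ddx21 (0.937), Hmgn1 (0.929) and Ass1 (0.912), and Csf2 most like Immp1l (0.913), D2Wsu81e (0.899) and Taf1d (0.897).

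Other cytokine and chemokine genes of T cells, a list of 32, had 16 members strong enough to test. With Arg C 14 were called lower and 1 higher, at a median of -1.16 against -0.47 for all genes, of which 70.0% were called lower and 16.5% higher. With linezolid 13 were called lower and 0 higher, at a median of -0.82 against -0.21 for all genes, of which 54.5% were called lower and 21.0% higher. With median-ratio scaling the counts were 12 lower and 3 higher, and 11 lower and 0 higher, against 41.9% and 41.4%, and 37.1% and 36.9%, of all genes. Lif, a cytokine of the IL-6 family, fell by 3.28 ± 0.11 with Arg C and by 2.81 ± 0.11 with linezolid (adjusted p = 3.6e-11 and 2.4e-10, limma). Paired values below give Arg C first and linezolid second. Osm, of the same family, fell (-2.74 and -2.03 ± 0.07), and Ccl5, a chemokine for T cells, fell (-2.97 and -2.65 ± 0.11). Mif, macrophage migration inhibitory factor, fell (-2.07 and -2.02 ± 0.05). The gene called higher with Arg C, named after its value was seen, was Tnf (0.57 ± 0.13, adjusted p = 0.0013, limma), whose linezolid difference of -0.30 ± 0.13 was not called (adjusted p = 0.051) and whose Arg C against linezolid difference was 0.87 ± 0.13 (adjusted p = 0.00010). The 16 untested genes include Ifng, Il4, Il5 and Il13, the marker cytokines of Th1 and Th2 cells.

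Of 28 transcription factors that act on Th17 cytokine genes, 27 were tested. Arg C lowered 23 and raised 3 (median -1.07 against -0.47 for all genes, of which 70.0% fell and 16.5% rose). Linezolid lowered 19 and raised 4 (median -0.42 against -0.21 for all genes, of which 54.5% fell and 21.0% rose). With median-ratio scaling these counts were 19 and 5, and 14 and 7, against 41.9% and 41.4%, and 37.1% and 36.9%, of all genes. Irf4, one of the factors that drive both Il17 genes, went from 104 to 171 RPKM in DMSO to 3.37 to 6.74 in Arg C and 9.81 to 18.04 in linezolid, with no overlap between DMSO and either drug. It fell by 4.60 ± 0.18 with Arg C and by 3.21 ± 0.18 with linezolid (adjusted p = 2.2e-10 and 1.1e-08, limma). Bhlhe40, which promotes Csf2 in helper T cells, fell (-2.98 and -2.06 ± 0.10, adjusted p = 8.1e-11 and 4.0e-09, limma). Junb and Batf, which form AP-1 dimers, fell too (-2.22 and -1.68 ± 0.06 for Junb, -1.53 and -1.18 ± 0.05 for Batf). Runx1, a RUNX family factor, was called in opposite directions, -0.25 ± 0.05 with Arg C (adjusted p = 0.00088, limma) and 0.39 ± 0.05 with linezolid (adjusted p = 3.3e-05). Its Arg C sign turned with median-ratio scaling (0.33). The 3 genes called higher with Arg C, named after their values were seen, were Klf4 (1.22 ± 0.07), Nfkbiz (0.50 ± 0.07) and Gfi1 (0.34 ± 0.12). Those called higher with linezolid were Klf4 (0.78 ± 0.07), Gfi1 (0.67 ± 0.12), Rel (0.48 ± 0.10) and Runx1.

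Receptor chains for the 9 cytokines were tested for 11 of 18 genes, and 10 were called lower with Arg C (0 higher, median -1.34) and 8 lower and 1 higher with linezolid (median -0.58). Of all genes 70.0% were called lower and 16.5% higher with Arg C, and 54.5% and 21.0% with linezolid. With median-ratio scaling the counts were 10 and 0, and 7 and 2, against 41.9% and 41.4%, and 37.1% and 36.9%. Il21r, the receptor of IL-21, fell (-2.47 and -1.49 ± 0.09), and Il10ra, of IL-10, fell (-2.36 and -1.42 ± 0.12). The IL-2 receptor chains Il2ra and Il2rb fell as well (-1.67 and -1.44 ± 0.12 for Il2ra, -1.34 and -1.15 ± 0.06 for Il2rb). Il17rc, Il22ra1, Il9r and Csf2ra were among the 7 chains too weak to test. The gene called higher with linezolid was Tgfbr1 (0.58 ± 0.18, adjusted p = 0.011, limma), named after its value was seen.

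Receptor chains and signalling genes upstream of the Th17 cytokines were tested for 25 of 26 genes. Arg C lowered 24 and raised 1 (median -1.13), against 70.0% and 16.5% of all genes. Linezolid lowered 20 and raised 2 (median -0.41), against 54.5% and 21.0%. With median-ratio scaling the counts were 18 and 2, and 14 and 2, against 41.9% and 41.4%, and 37.1% and 36.9%. The receptor gene Il1r1, for the IL-1β in the medium, fell (-1.59 and -1.47 ± 0.07), and its adaptor Myd88 fell (-2.36 and -1.88 ± 0.06). Jak3, the kinase of the common γ chain, fell (-1.64 and -1.55 ± 0.06), and Socs3, which restrains STAT3 signalling, fell (-2.00 and -1.66 ± 0.06). Jak1 was called in opposite directions, -0.23 ± 0.06 and 0.17 ± 0.06 (adjusted p = 0.0023 and 0.015, limma), and its Arg C sign turned with median-ratio scaling (0.42). All 4 lists moved in the direction of most genes, and their medians exceeded that of all genes in size in both comparisons with DMSO.

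**Figure D5:**
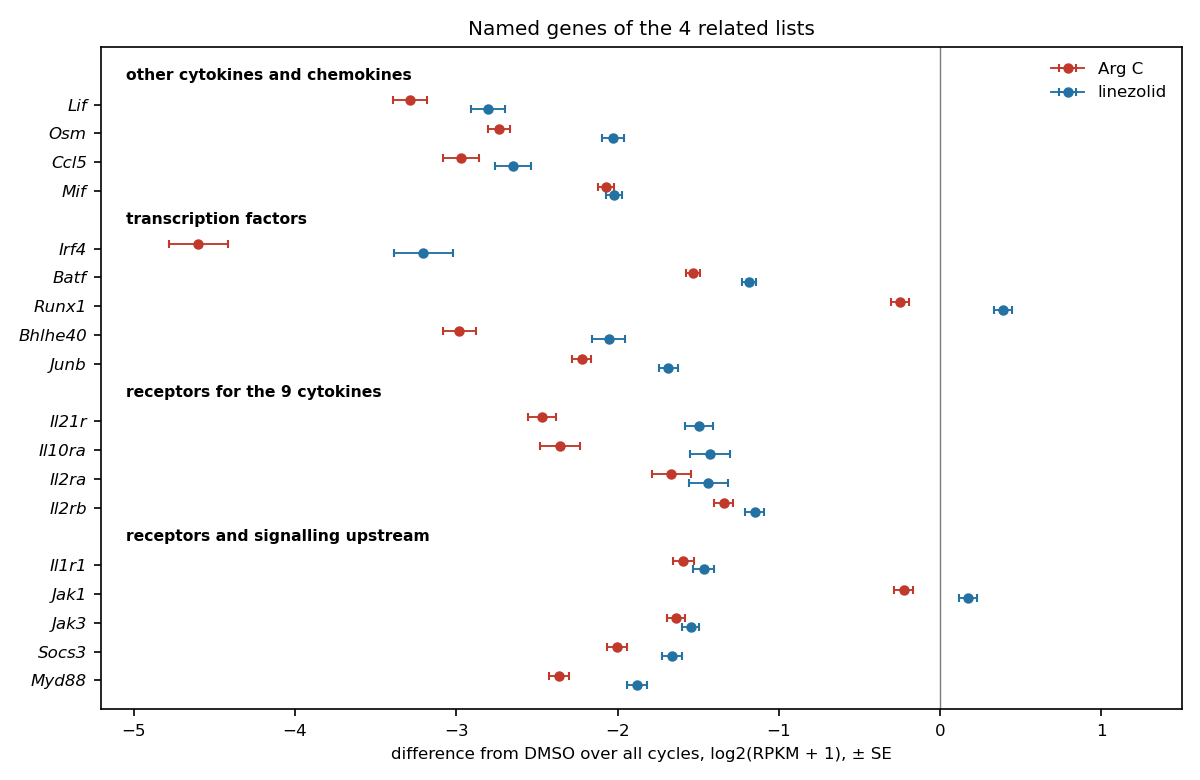
Difference from DMSO over all cycles in log2(RPKM + 1) with its standard error (x axis) for genes of the 4 lists (y axis), Arg C in red and linezolid in blue, n = 6 samples per drug from 2 experiments. Only the genes chosen by smallest p or by opposite calls are drawn. Other genes named in the text, such as Klf4 and Tnf, are left out. All genes drawn lie below 0 with both drugs except Runx1 and Jak1 with linezolid.

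The labelled cell type was checked against markers. The Th17 factor gene Rora stood at 5.69 to 9.58 RPKM in DMSO, and Cd4 stood at 209 to 241 RPKM in DMSO, 229 to 266 in Arg C and 257 to 294 in linezolid. The Th17 receptor genes Ccr6 and Il23r were weak in DMSO, at 1.03 to 2.97 and 0.604 to 1.11 RPKM, and at most 0.121 with a drug. The summed level of the 7 Th17 markers, which include Il17a and Il17f themselves, was 133 to 418 RPKM in DMSO, 15.9 to 50.3 in Arg C and 19.8 to 55.9 in linezolid. Of the other cells that can make these cytokines, NK cells had markers near 0, with 4 genes that summed to at most 0.279 RPKM in any sample. The 4 γδ T cell genes summed to at most 0.05004 RPKM, with Tcrg-C1, Tcrg-C2 and Trdc at 0 in all 18 samples. Whether reads of these genes are counted in the deposited values was not tested, so the zeros do not show that γδ T cells were absent. The CD8 T cell gene Cd8b1 stood at 5.67 to 9.45 RPKM in DMSO, 4.21 to 6.66 in Arg C and 4.80 to 8.44 in linezolid, and Cd8a at most at 0.394. The 3 Th1 markers summed to 1.37 to 5.02 RPKM in DMSO, 0.446 to 3.37 in Arg C and 0.843 to 4.30 in linezolid. Among them Ifng reached at most 0.130 RPKM, and the Th1 factor gene Tbx21 was 0.236 to 1.26 in DMSO, 0.446 to 2.74 in Arg C and 0.822 to 2.65 in linezolid. Gata3, the Th2 factor, stood at 2.85 to 9.05 RPKM in DMSO, 2.06 to 13.1 in Arg C and 2.78 to 13.8 in linezolid, and Il4 and Il13 were at most 0.555. The 3 regulatory T cell markers summed to 129.5 to 158 RPKM in DMSO, 31.1 to 62.9 in Arg C and 38.7 to 74.1 in linezolid. Only 1 of the 3, a gene other than Foxp3, averaged 1 RPKM or more in each group. It reached 157 RPKM in DMSO, 62.1 in Arg C and 72.2 in linezolid, so the sums follow that gene. Foxp3 among them was 0.177 to 0.463 RPKM in DMSO, 0.389 to 0.778 in Arg C and 0.4001 to 1.65 in linezolid. Of 3 mast cell markers, Kit was 2.66 to 8.34 RPKM in DMSO and 0.479 to 2.53 with a drug, while Cpa3 was at 0 in DMSO. The part of these markers in the results was not tested. In sorted bulk samples fewer cells making a cytokine and less RNA in each such cell cannot be told apart.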

How the data were processed

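RNA-seq of 54 libraries was analysed, 3 for each of 18 samples. The deposited table holds one value per gene and library, whose scale its header does not state. The values were read here as RPKM computed by the authors, since they resolve into whole reads for 19274 of 19284 genes with any value (tolerance 0.0001 read). The submitters' processing notes list CASAVA and the build GRCm38.p5. Which aligner, counter, annotation, library kit and strand setting were used is not given in the sources used here. Libraries held 8 to 12.5 M recovered reads, and 0 columns were left unused.

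Libraries of a sample were averaged, since their counts differed little more than sampling noise (chi-square per degree of freedom 1.04 to 1.11). On log2(RPKM + 1), limma 3.58.1 (R 4.3.3) fitted a coefficient per drug and cycle with experiment as a block (8 residual degrees of freedom), for genes of at least 0.5 RPKM in 2 of 18 samples. Calls are at a Benjamini-Hochberg adjusted p under 0.05 over 11004 genes, in 16 comparisons. The procedure was tested on simulated data. The p-values measure the spread between these samples.

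The 9 cytokine genes and the lists were chosen with earlier results of these data known. From each list, among the genes reported by name, the text gives up to 4 with the smallest p over both drugs, plus genes called in opposite directions, and for each tested cytokine gene the 3 genes with the highest Pearson r. Some genes of the lists are counted but not reported here by name. Genes sharing reads with overlapping or near-identical genes are uncertain. Alternatives were median-ratio scaling, a pseudocount of 0.1, a stricter filter (1 RPKM in 9 samples) or none, limma-voom on recovered reads, no experiment block, libraries with a replicate block, each replicate left out, each experiment alone, and cycles averaged.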

Additional observations from a re-analysis of the deposited data

Results flagged for a closer look

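In linezolid, the effect on Il17a differed between experiments by 0.68 on the log2(RPKM + 1) scale (experiment 2 minus experiment 1, adjusted p = 0.00063, limma), and that on Il17f by 0.41 (adjusted p = 0.0025). Each experiment held 1 culture per drug, so these p-values do not measure the spread between cultures. The same test called 44.3% of all tested genes for linezolid, so these calls do not set the 2 genes apart. The division course of Il10 differed between Arg C and DMSO by -0.91 (adjusted p = 0.016, limma). That call was lost in limma-voom on reads (adjusted p = 0.053) and in limma without the experiment block (adjusted p = 0.39). One of 27 groups of 6 samples had a sample far from the others: Il22 in linezolid, cycle 4 of experiment 2, at 0.0792 RPKM, which is 3 reads. The gap to its neighbour was 0.675 of the group's range, past the 95% limit of Dixon's test for 6 samples. For 6 like samples from a normal distribution, chance alone puts about 1 in 20 groups past that limit. The 6 samples here differ in cycle and experiment and hold 0 to 3 reads of Il22, so that rate need not apply.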

How the results depend on the processing

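Of the values for single cytokine genes under the alternatives, 938 kept their direction and side of the threshold, 44 lost and 31 gained a call, and 2 changed sign. For genes of the related lists the numbers were 658, 21, 7 and 7, and of the counts of called cytokine genes 248 stayed within 1.5 times and 50 moved. Where not stated below, the cause was not tested. Il9 with linezolid (1 gene called higher) gave 0 with a pseudocount of 0.1, no filter, limma-voom, no experiment block, either experiment alone or cycles averaged, and 0 to 1 with a replicate left out. Likewise the 1 gene called higher in cycle 3 with Arg C and in cycle 4 with linezolid became 0 with that pseudocount, no filter, limma-voom or no experiment block, and 0 to 1 with a replicate left out. In cycle 3 with linezolid, median-ratio scaling gave 1 higher in place of 0. In cycle 4 with Arg C, 5 to 6 were lower with a replicate left out.

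Between Arg C and linezolid, 2 genes were lower: 1 with median-ratio scaling, the stricter filter or experiment 1 alone, 4 in experiment 2 alone, 0 with cycles averaged, and 2 to 3 with a replicate left out. The 1 higher became 2 with median-ratio scaling and 0 with the stricter filter, either experiment alone or cycles averaged. From cycle 2 to 4 in DMSO, 1 lower became 0 with the pseudocount or the stricter filter and 2 with no filter, and 3 higher became 1 without the experiment block and 2 to 3 with a replicate left out. In Arg C, 1 lower became 2 with median-ratio scaling, the pseudocount or limma-voom and 0 without the experiment block, and 4 to 5 were higher with a replicate left out. In linezolid, 1 lower became 0 with the stricter filter, in which Tgfb3 is not tested. For the course in Arg C minus DMSO, 1 lower became 0 with limma-voom or no experiment block, and 0 higher became 2 with median-ratio scaling and 1 with the pseudocount or limma-voom.

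Signs turned with median-ratio scaling for Csf2 in cycle 4 with Arg C (0.031), for Runx1 and Jak1 in Arg C against DMSO (0.33 and 0.42), and, in Arg C against linezolid, for Il21 (0.038), Mif (0.32), Batf (0.013), Il2rb (0.17), Jak3 (0.27) and Socs3 (0.016). Libraries with the same replicate number did not deviate together, so the numbers do not pair samples. The fit of 54 libraries with the replicate block treats libraries as replicates: it gave 4 genes lower between Arg C and linezolid, 6 higher from cycle 2 to 4 in DMSO and 2 lower in Arg C, 2 lower and 3 higher for the course in Arg C minus DMSO, and 1 lower and 2 higher for that in linezolid minus DMSO. Depth limited Il22, Il2 and Csf2, with at most 27 reads in a sample.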
